A study of Mus musculus with 14 samples.

Results

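The genes described here are 10 chemokines and cytokines of mouse liver, Cxcl1, Cxcl2, Cxcl9, Cxcl10, Cxcl12, Ccl2, Ccl9, Il1b, Il1rn and Il33, out of 19505 genes named on the array. They were chosen by name with earlier results of these data known, so counts among them set beside all probe sets are descriptions. Each was read through the probe set that carries its symbol, of which every gene had 1. Livers came from male C57BL/6N mice aged 10 weeks, 7 in the compression group, whose trunk clothes were tightened, and 7 in the no-compression group, which wore the same clothes untightened. All 14 mice had been anesthetized with isoflurane for the fitting of the clothes and again at collection, 8 hours after the load began and within the light period. One Clariom S array was hybridized per mouse, and the comparison asks whether trunk compression changed hepatic gene expression.

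Chemokines are small secreted proteins that bind G protein-coupled receptors and guide white blood cells along a gradient. Cxcl1 and Cxcl2 draw neutrophils through the receptor Cxcr2, Cxcl9 and Cxcl10 are induced by interferon-gamma and draw activated T cells through Cxcr3, Ccl2 draws monocytes through Ccr2, Ccl9 acts on Ccr1, and Cxcl12 holds cells in their niche through Cxcr4. In the interleukin-1 family Il1b is the inflammatory ligand, Il1rn is the receptor antagonist that occupies the same receptor without a signal, and Il33 is an alarmin kept in the nucleus until cells are damaged. In liver these genes are used by hepatocytes as well as by Kupffer cells, endothelium and stellate cells, and Cxcl1 and Il1rn are known to be induced in hepatocytes in the acute phase response. In a bulk liver sample, fewer cells of a type and less RNA per cell cannot be told apart.

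Of the 10 genes 5 varied between mice and 5 did not. A probe set is called one with spread here where its SD over the 14 arrays exceeded 0.01 on the log2 scale, which held for 1238 of 22206 probe sets (5.58%). Cxcl1, Cxcl9, Ccl9, Il1rn and Il33 had spread, with SDs between 0.14 for Ccl9 and 0.62 for Cxcl1. Cxcl2, Cxcl10, Cxcl12, Ccl2 and Il1b had SDs of at most 4.87e-05, and no gene of the 10 had an SD between these values. The authors summarized the probes of a probe set with qFarms, a factor analysis that returns an almost constant value where the probes of a set do not vary together, so that these 5 values carry no information on a change. Their levels were 5.96 for Cxcl2, 6.59 for Cxcl10, 11.22 for Cxcl12, 6.48 for Ccl2 and 6.05 for Il1b in both groups, and the group means differed by at most 2.34e-05. The middle 95% of the 5222 negative control rows of the array ran from 4.93 to 8.21, with a median of 5.81. Of the genes without spread 4, all but Cxcl12, lay inside that range, and so did 4 of those with spread, all but Ccl9.

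Promoter windows of Cxcl1, Ccl9 and Cxcl9 are shown as a description of their letters. Cxcl1 and Ccl9, with Il1rn and Il33, were highest in no-compression replicates 3, 6 and 7. Cxcl9 was highest in no-compression replicates 1, 2 and 7, so that replicate 7 was shared. The windows of Il1rn and Il33 are not printed and held no match to the NF-kB consensus. A link between such matches and the pattern over mice was not tested. The windows hold 300 bases, from 250 before to 50 after a transcript start, and are RefSeq sequences on build GRCm38.p6. The table of windows used here matched 9 of the 10 genes, and Ccl2 is named only. Capitals mark matches to the NF-kB consensus, searched on both strands, and each sequence reads 5′ to 3′ on the strand of its gene.
Cxcl1 (chr5:90890995-90891294, plus strand): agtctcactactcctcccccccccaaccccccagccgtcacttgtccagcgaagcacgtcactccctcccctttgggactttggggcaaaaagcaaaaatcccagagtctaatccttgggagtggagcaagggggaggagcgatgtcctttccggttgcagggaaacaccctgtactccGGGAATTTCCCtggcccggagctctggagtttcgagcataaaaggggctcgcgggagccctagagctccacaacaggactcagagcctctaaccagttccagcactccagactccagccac
Ccl9 (chr11:83578587-83578886, minus strand): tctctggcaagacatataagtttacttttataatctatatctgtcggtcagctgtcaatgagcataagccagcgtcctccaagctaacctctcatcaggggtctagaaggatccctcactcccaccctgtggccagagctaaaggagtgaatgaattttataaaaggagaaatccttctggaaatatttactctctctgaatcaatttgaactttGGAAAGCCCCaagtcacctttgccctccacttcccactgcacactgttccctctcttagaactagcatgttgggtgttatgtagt
Cxcl9 (chr5:92328030-92328329, minus strand): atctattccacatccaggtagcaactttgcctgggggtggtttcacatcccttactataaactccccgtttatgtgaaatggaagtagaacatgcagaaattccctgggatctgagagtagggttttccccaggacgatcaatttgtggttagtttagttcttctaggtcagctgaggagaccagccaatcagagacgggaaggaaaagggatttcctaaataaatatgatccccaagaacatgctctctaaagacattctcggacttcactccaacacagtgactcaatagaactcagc
The Cxcl1 window held GGGAATTTCCC from position -71 to -61 relative to the start, a near palindrome that matches on both strands in overlapping frames. The same 11 letters stood from -97 to -87 in the window of Cxcl2, whose probe set had no spread. Ccl9 held 1 match, on the opposite strand, from -35 to -26. Cxcl10 held a pair of matches, from -159 to -150 and from -103 to -94. The other windows, those of Cxcl9, Cxcl12, Il1b, Il1rn and Il33, held no match in these letters. A match was found in 1480 of 32851 windows of all genes (4.51%). The interferon response letters GAAANNGAAA were found in Cxcl10 alone among these genes, from -213 to -204, and in 3.44% of all windows. The GAS letters TTCNNNGAA were found in none of these genes and in 8.3% of all windows. There was no overlap between matches of different motifs, and a match describes the letters only.

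All 5 genes with spread had lower means in the compression group, and none of the differences exceeded the variation between mice in limma after adjustment. Among all probe sets with spread 51.7% had a lower mean with compression. Of the 10 genes 0 passed limma at an adjusted p of 0.05, as did 0% of all 22206 probe sets, for which the lowest adjusted p was 0.300. At an unadjusted p under 0.05 from limma there was 1 of the 10, Ccl9, against 5.19% of all probe sets.

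Cxcl1, the neutrophil chemokine, varied most. Its log2 expression values (probe set TC0500000848.mm.2) in the compression group were 7.44, 6.88, 7.86, 8.12, 7.11, 7.48 and 7.19 for replicates 1 to 7. In the no-compression group they were 6.82, 6.90, 8.45, 7.15, 7.93, 8.64 and 8.30. No-compression replicates 3, 6 and 7 lay above every compression mouse, replicate 1 was the lowest of all 14 mice, and the other 3 fell within the range of the compression group. Compression livers averaged 7.44 ± 0.43 (SD, n = 7) against 7.74 ± 0.77 (SD, n = 7), so the log2 fold change was -0.30 (standard error 0.33, 95% interval from -1.01 to 0.41, adjusted p = 0.979 from limma). The exact permutation test gave p = 0.380 before adjustment, two-sided.

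Il1rn, the interleukin-1 receptor antagonist, was high in the same 3 mice of the no-compression group. Its log2 values (probe set TC0200000382.mm.2) were 6.60, 6.37, 6.47, 6.93, 6.36, 6.32 and 6.41 with compression. Without compression they were 6.33, 6.37, 7.14, 6.30, 6.47, 7.70 and 7.26. The values of replicates 3, 6 and 7 exceeded those of the other 11 mice, of which compression replicate 4 was the highest. The means were 6.50 ± 0.21 (SD, n = 7) and 6.80 ± 0.56 (SD, n = 7). The log2 fold change was -0.30 (standard error 0.22, 95% interval from -0.79 to 0.18, adjusted p = 0.967 from limma).

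Il33, the nuclear alarmin, had the narrowest compression group relative to its no-compression group. Its log2 values (probe set TC1900000448.mm.2) were 6.81, 6.67, 6.66, 6.76, 6.82, 6.72 and 6.72 with compression. They were 6.74, 6.61, 7.08, 6.58, 6.69, 7.39 and 7.20 without it. Again no-compression replicates 3, 6 and 7 were the 3 highest of 14, and no-compression replicates 2 and 4 were the lowest. The means were 6.74 ± 0.06 (SD, n = 7) and 6.90 ± 0.32 (SD, n = 7). The log2 fold change was -0.16 (standard error 0.12, 95% interval from -0.42 to 0.10, adjusted p = 0.967 from limma).

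Ccl9, a chemokine of the CC class acting on Ccr1, came closest to separating the groups. Its log2 values (probe set TC1100003397.mm.2) were 10.45, 10.43, 10.50, 10.30, 10.43, 10.40 and 10.48 with compression. They were 10.37, 10.45, 10.69, 10.52, 10.52, 10.60 and 10.83 without it. No-compression replicates 3, 4, 5, 6 and 7 lay above all compression mice, and replicates 1 and 2 did not, so the groups overlapped. The means were 10.43 ± 0.06 (SD, n = 7) and 10.57 ± 0.15 (SD, n = 7). The log2 fold change was -0.14 (standard error 0.06, 95% interval from -0.28 to -0.01), a level 1.10-fold higher without compression. Its p was 0.0383 from limma before adjustment and 0.943 after it, and 0.0379 from the exact permutation test before adjustment.

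Cxcl9, the T cell chemokine, was highest in a partly different set of mice. Its log2 values (probe set TC0500002755.mm.2) were 6.93, 7.03, 7.05, 7.25, 6.96, 7.02 and 7.01 with compression. They were 7.63, 7.51, 7.04, 6.93, 7.00, 7.11 and 7.38 without it. No-compression replicates 1, 2 and 7 were the highest, and replicates 3 and 6, which were high for the other 4 genes, lay within the range of the compression group. The means were 7.04 ± 0.10 (SD, n = 7) and 7.23 ± 0.28 (SD, n = 7). The log2 fold change was -0.19 (standard error 0.11, 95% interval from -0.43 to 0.05, adjusted p = 0.943 from limma).

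**Figure D1:**
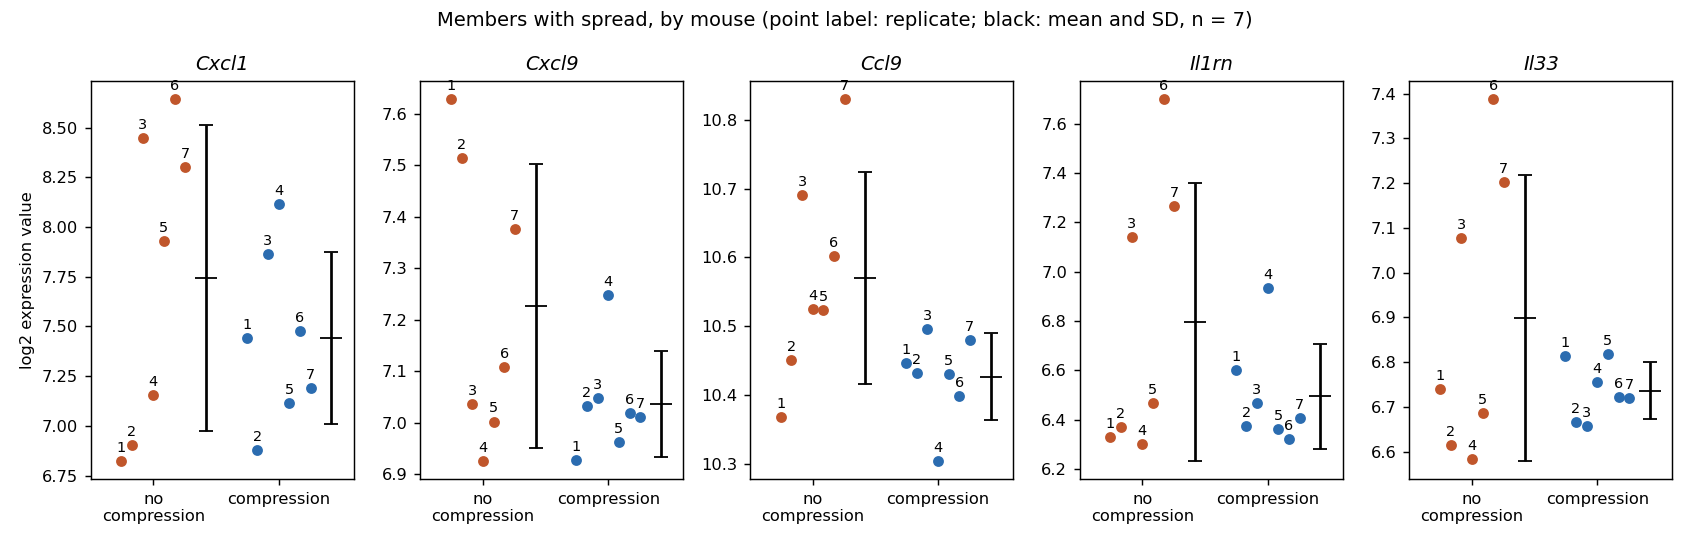
Log2 expression values of the 5 genes with spread, 1 point per mouse labelled with its replicate number, with the group mean and SD (n = 7) in black, on a separate scale for each gene. No-compression replicates 3, 6 and 7 are the 3 highest mice for Cxcl1, Il1rn, Il33 and Ccl9, whereas replicates 1, 2 and 7 are the highest for Cxcl9.

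These 3 livers stood apart from the rest of the series over many genes. A principal component analysis of the 1238 probe sets placed 57.1% of the variance on its leading axis, where no-compression replicates 3, 6 and 7 scored 9.57, 16.7 and 9.45, against -6.73 to 2.25 for the other 11 arrays. In 198 of the 1238 probe sets with spread (16%) these 3 arrays lay above all others, and 4 of the 5 genes with spread were among them. These mice were singled out by their expression values, so that this count describes them and tests nothing.
Values without these 3 mice are given as a description only. The mice are the 3 highest of 14 for Cxcl1, Il1rn, Il33 and Ccl9 and all belong to 1 group, so that a shift toward higher fold changes was fixed by their choice. Without them the log2 fold change was 0.24 for Cxcl1, 0.13 for Il1rn and 0.08 for Il33, with the sign turned, and -0.04 for Ccl9. It was -0.23 for Cxcl9, for which no-compression replicates 1, 2 and 7 were the highest. Leaving out no-compression replicate 6 alone gave -0.15 for Cxcl1, -0.15 for Il1rn and -0.08 for Il33, and leaving out replicate 7 alone gave -0.10 for Ccl9.

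**Figure D2:**
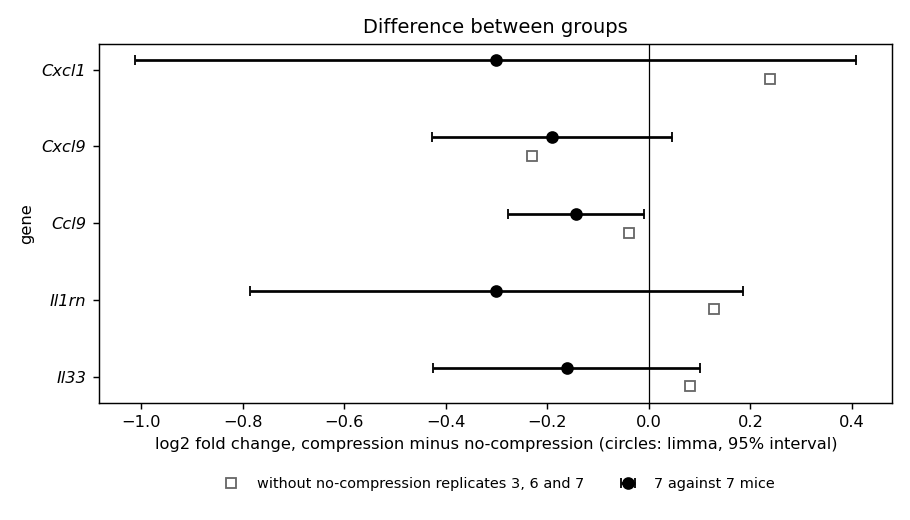
Log2 fold changes of the 5 genes with spread, compression minus no-compression, over all 14 mice with 95% intervals of limma (filled circles) and, without an interval, after removal of no-compression replicates 3, 6 and 7 (open squares). With all mice every point lies below 0 and only the interval of Ccl9, from -0.28 to -0.01, does not reach 0, and without the 3 mice the points of Cxcl1, Il1rn and Il33 lie above 0.

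Rank products, the method that the study's methods name, written out anew, gave other calls than limma. At an FDR of 0.01 it called 4 of the 10 genes lower with compression, Cxcl1, Cxcl9, Ccl9 and Il1rn, and not Il33 (FDR = 0.0242). The study itself reports Cxcl2, Cxcl9, Il1rn and Il33 among its genes down-regulated with compression. The version used here thus did not return its calls of Cxcl2 and Il33. It called 1.22% of all probe sets lower, and 21.4% of those with spread. Rank products orders probe sets by signed fold change within pairs of mice. A probe set that varies thus falls toward either end of the order, with the nearly constant ones between. Its FDR is not a measure of the variation between mice.

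The 5 genes with spread had larger SDs in the no-compression group than in the compression group. The SD without compression was 1.78 times that with compression for Cxcl1, 2.69 times for Cxcl9, 2.43 times for Ccl9, 2.64 times for Il1rn and 5.01 times for Il33. A larger SD without compression was found for 66.4% of all probe sets with spread. When the absolute deviations of mice from their group median were compared, the exact permutation test gave p = 0.0326 for Il33, 0.0554 for Cxcl9, 0.0927 for Cxcl1, 0.103 for Il1rn and 0.132 for Ccl9, two-sided and before adjustment. In limma on these deviations 0 of the 10 genes and 0% of all probe sets passed after adjustment (adjusted p = 0.999 for each of the 10 genes). At an unadjusted p under 0.05 there was 1 of the 10 with the smaller deviations under compression, Il33, against 1.28% of all probe sets. This test made no call on simulated data with known differences either, so its adjusted p says nothing on these genes. Without no-compression replicates 3, 6 and 7 the SDs of the remaining 4 mice were close to those of the compression group for Il33 (0.070 against 0.064), Ccl9 (0.074 against 0.063) and Cxcl1 (0.51 against 0.43). The SD of Il1rn was then 0.07, below the 0.21 of the compression group, and that of Cxcl9 was 0.35, above 0.10. The difference of the mean absolute deviations of Il33, compression minus no-compression, went from -0.21 with all mice to -0.0079 without the 3. These values without the 3 mice are a description only. The mice were the highest for Cxcl1, Il1rn, Il33 and Ccl9, so the smaller SDs of these genes followed largely from their choice.

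Cxcl1, Il1rn, Il33 and Ccl9 were high in the same mice of the no-compression group, and the shared pattern was largely that of replicates 3, 6 and 7. In each of these 3 mice all 5 genes with spread lay above their own median over the 14 mice. For Cxcl9 the margin was only 0.0015 in replicate 3 and 0.07 in replicate 6, within the range of the compression group. Replicate 6 was the highest of all mice for 3 genes, Cxcl1, Il1rn and Il33, replicate 7 for Ccl9 and replicate 1 for Cxcl9. No compression mouse was among the 3 highest for any of the 5 genes. Within the compression group replicate 4 was the highest for Cxcl1, Il1rn and Cxcl9 and the lowest for Ccl9.
Over all 14 mice with the group means removed, 3 of 10 pairs of genes passed after adjustment. Pearson r was 0.92 for Il1rn and Il33 (adjusted permutation p = 1.0e-04), 0.86 for Cxcl1 and Il1rn (0.0003) and 0.73 for Cxcl1 and Il33 (0.00857). The 3 mice that stand apart enter each of these values, which are given as a description. Because those mice form a cluster of their own, correlations follow over the other 11 mice with the group means removed. Cxcl1 and Il1rn had a Pearson r of 0.68 (permutation p = 0.0144, adjusted 0.0722) and a Spearman rho of 0.52 (p = 0.106, adjusted 0.355), and r was 0.26 when the 2 mice farthest from the median of Cxcl1 were left out. Leaving out the farthest mice narrows the range of Cxcl1 and so can lower r in itself. The drop therefore does not show whether the relation rested on those mice. Il1rn and Il33, whose 3 highest values came from the same mice, had r = 0.23 (permutation p = 0.537, adjusted 0.678) and rho = 0.12 (p = 0.737, adjusted 0.995) among the other 11, and r = 0.05 when the 2 mice farthest from the median of Il1rn were left out. Cxcl9 and Ccl9 had r = -0.77 (permutation p = 0.0060, adjusted 0.0600) and rho = -0.62 (p = 0.0473, adjusted 0.355) in these 11 mice. Without the 2 mice farthest from the median of Cxcl9 r was -0.65. This inverse relation was not stable across sets of mice. Over all 14 mice r was -0.37 (permutation p = 0.199, adjusted 0.284), and 0.16 without the 2 farthest. In the compression group alone r was -0.73 and rho -0.21, and r was 0.36 without the 2 farthest. None of the 10 pairs passed after adjustment in these 11 mice, nor in the 7 compression mice alone by the exact permutation test, where the lowest adjusted p of a Pearson r was 0.244.

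**Figure D3:**
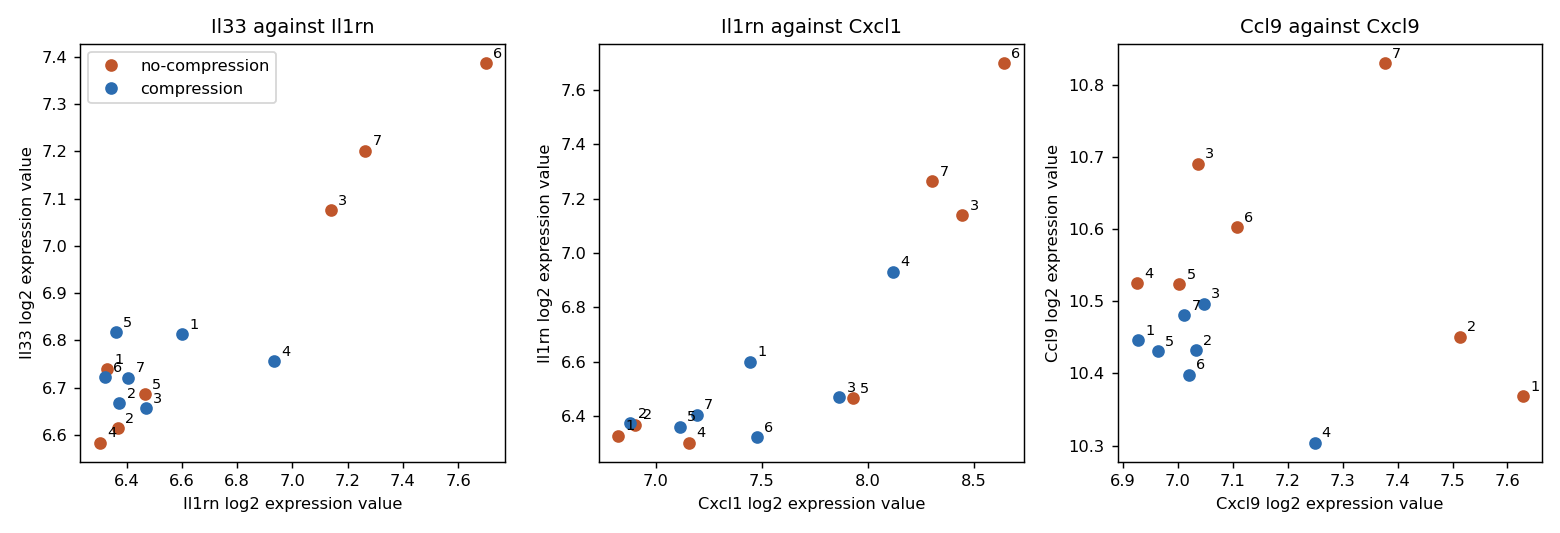
Log2 values of Il33 against Il1rn, Il1rn against Cxcl1, and Ccl9 against Cxcl9, 1 point per mouse labelled with its replicate number, by group. In the first and second panels no-compression replicates 3, 6 and 7 lie apart at the upper right, and in the third no-compression replicates 1 and 2 lie at high Cxcl9, at 7.63 and 7.51, with Ccl9 at 10.37 and 10.45.

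The genes whose values followed each of the 5 most closely were taken as the 3 with the highest Pearson r over the 14 arrays among 780 other named probe sets with an SD of at least 0.1. These r are descriptions, since the 3 mice that stand apart enter each of them. For Cxcl1 they were Itih2, a plasma protein made by liver (r = 0.92, and 0.85 over the 11 other mice), Tnfrsf1a, a receptor of tumour necrosis factor (0.91 and 0.77), and Btg2, an antiproliferative early response gene (0.89 and 0.73). For Il1rn they were Bmper, a secreted binder of bone morphogenetic proteins (0.96 and 0.76), Gabbr2, a GABA receptor subunit (0.96 and 0.65), and Gucy2c, a guanylate cyclase receptor (0.95 and 0.74). For Il33 they were the alpha tubulin Tuba8 (0.97 and 0.60), the membrane glycoprotein Prom1 (0.96 and 0.49) and Tifa, an adaptor that activates Traf6 (0.95 and 0.49). For Ccl9 they were the epithelial cadherin Cdh1 (0.88 and 0.88), the co-chaperone Dnajc12 (0.87 and 0.41) and the tetraspanin Tspan9 (0.84 and 0.52). For Cxcl9 the highest r over the 14 arrays were lower. They were those of Creg1, a lysosomal glycoprotein (0.65 and 0.64), and Ethe1, a mitochondrial sulfur dioxygenase (0.54 and 0.58). Nr0b2, a nuclear receptor that represses bile acid synthesis, came next (0.52 and 0.57). Over the 11 other mice these r lay within the range of those for Il33 and Ccl9, from 0.41 to 0.88.

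Few other genes of the same pathways had spread. Of 148 genes in 10 lists of ligands, receptors and signalling, 135 were measured and 10 of these had spread (7.41%, against 5.58% of all probe sets). The lists include the 10 genes described above, 5 of them with spread, which raises that share. Of the 125 other measured genes 5 had spread. In limma 0 of the 135 passed. Among 20 measured CC ligands Ccl9 was the only one with spread, among 6 ligands of Cxcr2 it was Cxcl1, and among 4 ligands of Cxcr3 it was Cxcl9. None of 21 measured chemokine receptors and none of 26 other cytokines, which include Tnf and Il6, had spread.
Bcl3, a nuclear member of the IkB family that is itself a target of NF-kB, had its highest values in the same mice as Cxcl1. Its log2 values were 8.64, 8.17, 8.11, 8.80, 8.31, 8.47 and 8.42 with compression and 8.07, 8.44, 9.29, 7.99, 8.68, 9.43 and 8.91 without it. No-compression replicates 3, 6 and 7 were again the highest, and compression replicate 4 led its own group. The means were 8.42 ± 0.25 and 8.69 ± 0.56 (SD, n = 7 each). The log2 fold change was -0.27 (standard error 0.23, adjusted p = 0.976 from limma). Bcl3 was the only gene with spread among 16 measured NF-kB factors and targets.
Il1r1, the receptor on which Il1b and Il1rn compete, had 10.16 ± 0.21 with compression and 10.18 ± 0.30 without it (SD, n = 7 each), and its partner chain Il1rap had 9.90 ± 0.08 and 9.89 ± 0.12. Il1r1 was at 10.45 and 10.63 in no-compression replicates 3 and 6 but at 9.93 in replicate 7, within the range of the other mice. Cxcl13, which draws B cells, had 6.75 ± 0.22 and 6.79 ± 0.29, with its highest value, 7.37, in no-compression replicate 7. Irgm1, the only one with spread of 14 measured interferon-gamma genes, had 8.90 ± 0.15 and 8.91 ± 0.10. It was at 8.89, 9.09 and 8.91 in no-compression replicates 1, 2 and 7, where Cxcl9 was highest. Replicate 2 had the highest Irgm1 of the no-compression group, and compression replicate 1 the highest of all mice, at 9.14.

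**Figure D4:**
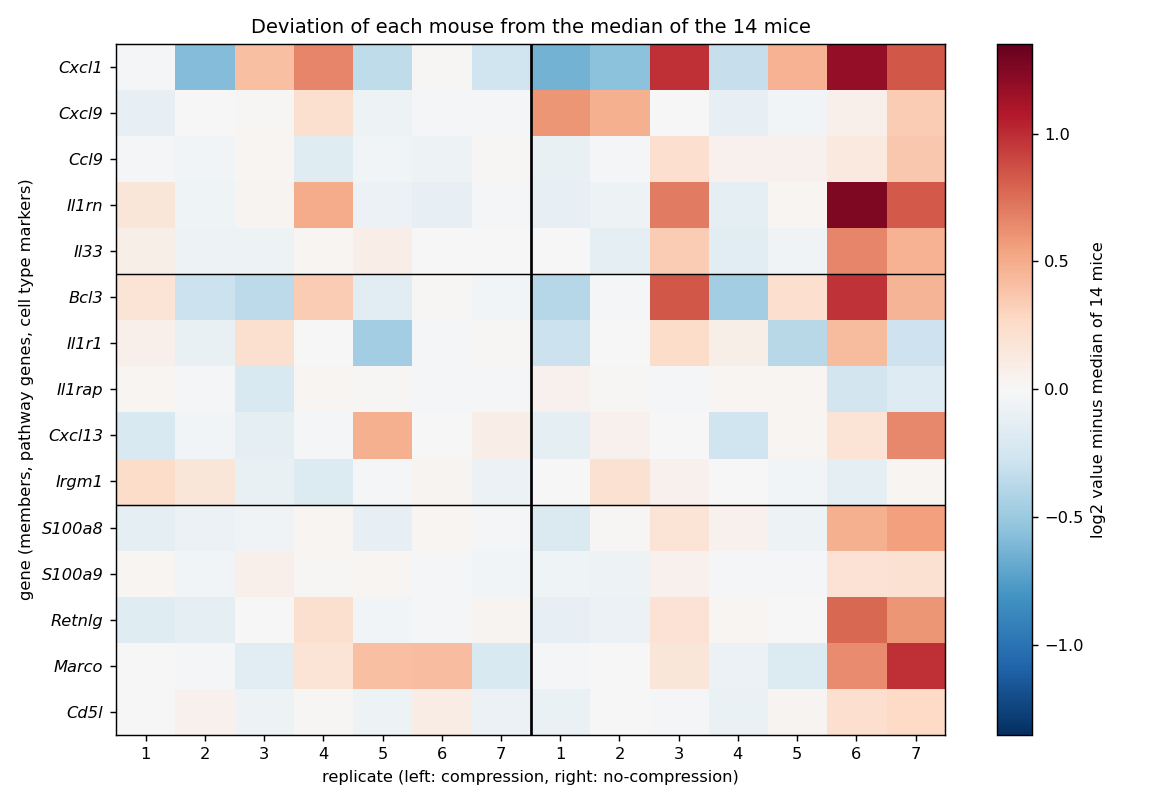
Deviation of each mouse from the median of the 14 mice, in log2 units, for the 5 genes with spread (top), the 5 other pathway genes with spread (middle) and 5 markers of neutrophils and Kupffer cells (bottom), with the compression mice at the left and the no-compression mice at the right. Cxcl1, Il1rn, Il33 and Bcl3 are high in no-compression replicates 3, 6 and 7, and Cxcl9 in replicates 1, 2 and 7. The markers S100a8, Retnlg and Marco are high in replicates 6 and 7. The Kupffer cell markers C1qb and Vsig4, which also had spread, are not drawn.

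Markers of white blood cells moved in part with these genes. Of 9 measured neutrophil markers 3 had spread, S100a8, S100a9 and Retnlg, all with lower means in the compression group. All values of these 3 markers lay inside the range of the negative control rows, from 4.93 to 8.21 with a median of 5.81. The S100a8 values of all compression mice lay below that median. Whether shifts at such levels came from neutrophils was not tested. S100a8, a calcium-binding protein abundant in neutrophils, was between 5.50 and 5.65 with compression, at 6.11 and 6.18 in no-compression replicates 6 and 7, at 5.81 in replicate 3 and between 5.43 and 5.68 in the others. The mean level over the 9 markers ran from 6.01 to 6.07 in the compression group and from 6.00 to 6.20 in the no-compression group. The neutrophil markers Elane and Csf3r had no spread. Of 11 measured Kupffer cell markers 4 had spread, Marco, Cd5l, C1qb and Vsig4, and the mean level over the 11 ran from 8.11 to 8.21 with compression and from 8.12 to 8.27 without it. Marco, a scavenger receptor of macrophages, was at 7.81 and 8.16 in no-compression replicates 6 and 7. It was at 7.33 in replicate 3 and between 6.97 and 7.59 in the compression group. Its values lay inside the range of the negative control rows as well. In no-compression replicates 3, 6 and 7 Cd5l was at 9.54, 9.78 and 9.83, against 9.48 to 9.66 with compression. C1qb and Vsig4 did not stand out in these mice. C1qb was at 8.43, 8.63 and 8.65, against 8.42 to 8.66 with compression. Vsig4 was at 8.65, 8.68 and 8.71, against 8.61 to 8.71, and its mean was not lower with compression. The defining Kupffer cell marker Clec4f had no spread. None of the measured markers of T and NK cells (10), B cells (4) and monocytes and dendritic cells (10) had spread. The part of these cells in the values of the chemokines and cytokines was not tested. The tissue label was checked against hepatocyte markers, of which albumin (Alb) was at 13.39 and transferrin (Trf) at 13.31 in both groups, far above the range of the negative control rows.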

How the data were processed

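The deposited table holds log2 expression values for 14 arrays, which the authors made from the scanner files with qFarms in R 3.4.4 (a version from the submitters' processing notes), by quantile normalization and a factor analysis over the probes of each probe set. Probe sets whose probes do not vary together thereby become nearly constant (median SD 1.04e-05), which cannot be undone. The values were used unchanged. Of 29129 rows 6923 were control rows and were left out. The platform annotation named 1 gene for 19572 of the 22206 probe sets tested, several for 0 and none for 2634. No array depth applies, and the number of arrays limits the precision. Array medians lay between 6.51 and 6.52.
Groups and replicate numbers came from the sample titles. The test was limma 3.58.1 (lmFit and eBayes in R 4.3.3, adjusted after Benjamini-Hochberg over all 22206 probe sets). Its p-values set the difference of the group means against the variation between these mice. Alternatives were an exact permutation test of all probe sets (3432 arrangements, smallest two-sided p 0.000583), rank products over 49 random pairings (FDR limit 0.01), median centring or quantile normalization, dropping low or constant probe sets, eBayes with trend and robust, a replicate block, and removing mice. Correlations used 100000 resamples, or all arrangements within a group of 7, and were adjusted over 10 pairs, in Python 3.11.15 with numpy 2.4.6 and scipy 1.17.1. The scripts were tested on simulated data.
The genes, the lists and the 3 mice left out were chosen with earlier results of these data known. Named genes were the 10 genes, the 3 closest followers of each gene with spread, up to 4 genes with spread by SD from each pathway list, any past the limit of limma (0), and the 2 cell type markers with the highest mean per list. The markers S100a8, S100a9, Retnlg, Marco, Cd5l, C1qb, Vsig4, Lyve1, Apoa1 and Cyp2e1 were chosen after their values were seen.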

Additional observations from a re-analysis of the deposited data

Results flagged for a closer look

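In 42 sets of 7 mice (21 genes with spread in each group) the distance of the highest and the lowest mouse to its neighbour was compared with the range of the set, and 3 mice lay further off than Dixon's limit for 7 samples allows. About 1 in 20 sets exceeds that limit by chance. Cxcl9 in compression replicate 4 was at 7.25, with the next mouse of the group at 7.05. Cxcl13 in compression replicate 5 was at 7.20, with the next at 6.81. Il1rap in compression replicate 3 was at 9.73, with the next at 9.90. None of the high values of no-compression replicates 3, 6 and 7 for the chemokines and cytokines passed this limit, since the 3 mice lie near each other.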

How the results depend on the processing

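The count of genes past the limit was 0 under each normalization, filter and setting of limma tried, with any 1 mouse left out and with the exact permutation test, whereas rank products called 4. With 1 mouse left out the log2 fold change ranged from -0.46 to -0.15 for Cxcl1, -0.38 to -0.15 for Il1rn, -0.21 to -0.08 for Il33, -0.18 to -0.10 for Ccl9 and -0.24 to -0.12 for Cxcl9. The numbers of the replicates do not pair the mice (same-numbered mice correlated between -0.49 and 0.34 and 2 of 7 pairs were above 0.1), and with the replicate number as a block 0 of the 10 genes passed.
Without no-compression replicates 3, 6 and 7, which were singled out by their expression values, the direction turned for Cxcl1 (0.24), Il1rn (0.13), Il33 (0.081), Cxcl13 (0.11), Il1r1 (0.10), Il1rap (-0.060), Bcl3 (0.12), Marco (0.16), Cd5l (0.032), S100a8 (0.000884), S100a9 (0.050), Retnlg (0.026), Lyve1 (0.17) and Apoa1 (-0.0060), as did the difference of the absolute deviations of Il1rn (0.083). Under quantile normalization that of Vsig4 turned (-0.00136).
Over all 14 mice with group means removed 3 pairs of genes had an adjusted p under 0.05 for Pearson's r. There were 6 with the group means kept and under quantile normalization, 0 in the compression group alone, 1 in the no-compression group alone, and 0 without no-compression replicates 3, 6 and 7. Against the sign over 14 mice, r in the compression group alone turned for Cxcl1 with Cxcl9 (0.67), Ccl9 (-0.44) and Il33 (-0.025), for Il1rn with Cxcl9 (0.73) and Ccl9 (-0.67), and for Ccl9 with Il33 (-0.29). Without the 3 mice it turned for Cxcl9 with Il1rn (0.22) and Il33 (0.20) and for Ccl9 with Il1rn (-0.45) and Il33 (-0.43). With group means kept it turned for Cxcl9 with Il1rn (0.084) and Il33 (0.071). The cause of these turns was not tested.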

Other observations

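Lyve1, a marker of sinusoidal endothelium, and Cyp2e1, an abundant hepatocyte enzyme, are given as values beside the mice that stood apart. Lyve1 was at 8.43, 8.53 and 8.60 in no-compression replicates 3, 6 and 7, between 7.91 and 8.14 in the other no-compression mice and between 7.84 and 8.70 in the compression group, where replicate 4 was the highest. Cyp2e1 was at 12.91, 12.85 and 12.77 in the same 3 mice and between 12.99 and 13.05 in the compression group. The other no-compression mice had Cyp2e1 between 13.01 and 13.05. Both genes were picked after their values were seen. Of 9 measured markers of sinusoidal endothelium only Lyve1 had spread. Of 8 measured hepatocyte markers only Cyp2e1 and Apoa1 had spread. Apoa1 was at 13.04, 12.99 and 13.12 in the same 3 mice, against 13.04 to 13.15 with compression.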
